A study of Mus musculus with 4 samples.

Results

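miR-26a-5p and miR-26b-5p are 2 closely related miRNAs whose hairpins lie inside introns of the Ctdsp phosphatase genes. They were chosen by name, as the miR-26 members that the count data list, and make up 2 of 1059 mature miRNAs counted and 2 of 274 that had enough counts to be tested. No other miR-26 name appears among the 1211 rows counted, and none of the 3 rows named miR-26 is a 3p arm, so the 3p arms of these hairpins were not analysed here. Of the 1211 rows, 114 are named as 3p arms, and many miRNAs have no row for that arm. Levels, ranks and shares below therefore describe the rows counted, and not every miRNA of the tissue.

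The libraries hold small RNA of embryonic mouse forebrain at E11.5, from controls and from mutants with an early deletion of Dicer. Dicer is the enzyme that cuts miRNA hairpins into mature miRNAs, and the comparison asked which miRNAs were reduced in the mutants. By in situ hybridization, the paper found Dicer substantially reduced in the rostral telencephalon of mutants shortly after this stage and absent at a later one. How much Dicer was left in the mutant libraries was not analysed here. There were 2 libraries of Rx-Dicer mutants and 2 control libraries, each of the rostral-most telencephalic primordium, dissected, frozen and then dissociated with papain. Rx-Dicer embryos carried an Rx3-Cre transgene together with floxed Dicer alleles (RxCre-DicerF/F), and Cre in this line is driven by regulatory sequences of the eye field and forebrain gene Rax. For the controls the genotype field reads WT, while the protocol names them DicerF/F, which would mean that both groups carried the floxed alleles and differed in the Cre transgene. The Rx3-Cre line was kept on a CD1 background and the floxed Dicer line (Dicer1tm1Bdh/J) on C57BL/6, and the genotype of a single embryo's background is not given. The number of embryos in each library is not given in the sources used here. Nothing in the labels says whether the libraries of a genotype came from separate animals, so p-values measure the spread between these libraries, which may be partly technical.

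Intronic miRNAs such as these are cut from the transcript of their host gene as a hairpin, which Dicer then trims to the mature miRNA. The mature strand guides Argonaute to messenger RNAs, mainly through pairing of its seed near the 5′ end. The host genes Ctdsp1, Ctdsp2 and Ctdspl encode small phosphatases of the RNA polymerase II C-terminal domain that work with the repressor REST to keep neuronal genes silent in non-neuronal cells. In zebrafish, miR-26b represses its host Ctdsp2 as neurons form, so that host and miRNA act in opposite directions.

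Each hairpin lies in the intron before the last 3 exons of its host. Mir26a-1 lies at chr9:119031796-119031885 on the plus strand of GRCm38, in intron 5 of 7 of Ctdspl, an intron of 3283 bases. Mir26a-2 lies at chr10:126995530-126995613 on the plus strand, in intron 5 of 7 of Ctdsp2, which is 1946 bases long. Mir26b lies at chr1:74394310-74394394 on the plus strand, in intron 4 of 6 of Ctdsp1, the shortest of the 3 introns at 564 bases. All 3 hairpins are thus on the strand of the host, and in each host the intron is followed by 3 further exons in these transcripts.

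**Figure D1:**
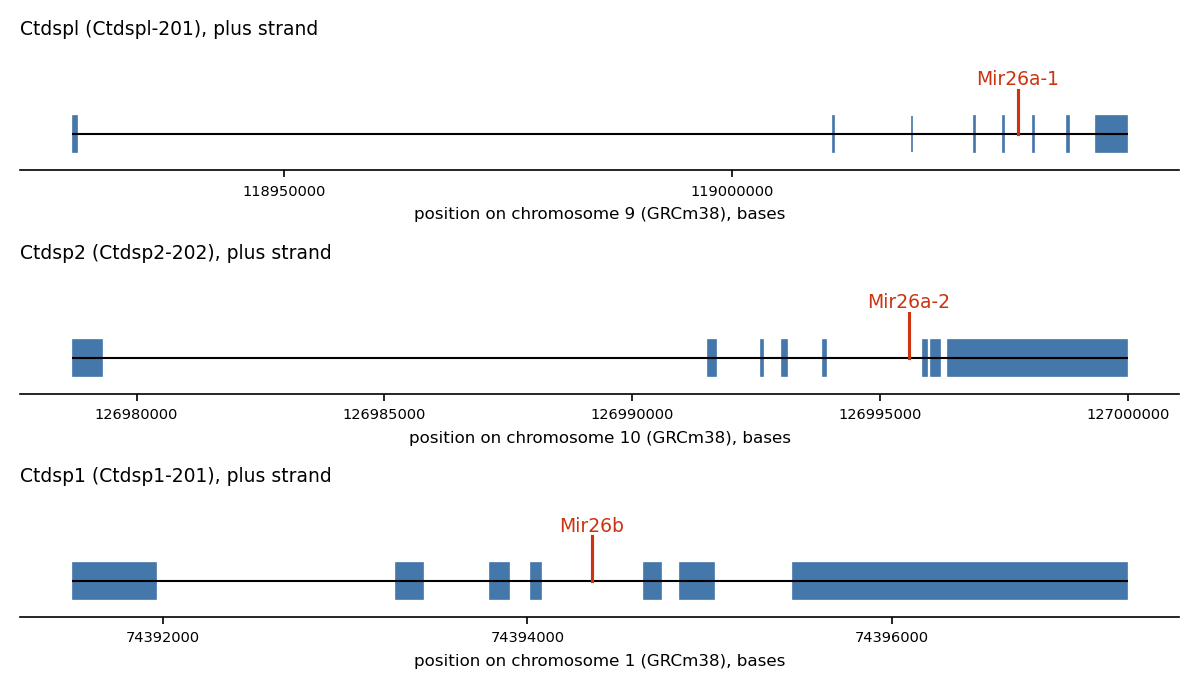
Maps of the 3 Ctdsp genes that hold a miR-26 hairpin, drawn to scale along each chromosome (GRCm38, positions in bases). Boxes are exons of the named transcript, the line is the gene and the red mark is the hairpin, which in each gene lies in an intron with 3 exons after it, near the 3′ end in Ctdspl, in the 3′ part of Ctdsp2 and near the middle of Ctdsp1.

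The mature sequences show why the members are treated as a family and how reads can tell them apart. They are given 5′ to 3′ from RefSeq (GRCm38.p6), with the seed (bases 2 to 8) in capitals.
mmu-miR-26a-5p: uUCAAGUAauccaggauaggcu
mmu-miR-26b-5p: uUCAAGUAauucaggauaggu
miR-26a-5p has 22 bases and miR-26b-5p has 21, and they differ by the substitutions C11U and C21U, with positions counted from 1 at the 5′ end and the base of miR-26a-5p given first. The seed is shared in full, and these are the only 2 of 1679 mature names in the RefSeq table with UCAAGUA at bases 2 to 8. Another name, miR-6371, shares bases 2 to 7 and has no row among those counted. A read that stops before position 21 is told apart by position 11 alone, and how many reads were assigned by that base was not analysed here.

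The hairpins themselves are less alike than their mature strands. Mir26a-1 and Mir26a-2 hold the identical miR-26a-5p but are separated by 25 single-base edits over hairpins of 90 and 84 bases, and Mir26b, with 85 bases, is 29 edits from Mir26a-1 and 30 from Mir26a-2. The opposite arms differ as well, and are shown because they are where a read could name its hairpin, again with bases 2 to 8 in capitals.
mmu-miR-26a-1-3p: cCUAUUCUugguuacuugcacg
mmu-miR-26a-2-3p: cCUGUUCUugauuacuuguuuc
mmu-miR-26b-3p: cCUGUUCUccauuacuuggcuc
The 3p arms of Mir26a-2 and Mir26b share their bases 2 to 8, and that of Mir26a-1 has others.

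The libraries differed in depth. Counts over mature miRNAs summed to 651031 and 516517 in Rx-Dicer libraries 1 and 2 and to 1299067 and 1133553 in control libraries 1 and 2. The smallest share visible at this depth, taken as 3 counts, was 0.000461% and 0.000581% in the Rx-Dicer libraries and 0.000231% and 0.000265% in the controls, far under the share of either member. Levels are given below as scaled CPM, which are counts relative to a library total (CPM) that was corrected by edgeR's TMM factors (1.17, 1.14, 0.926 and 0.814 in the same order). Such levels are relative to the other miRNAs in the library, and a loss shared by all of them would not show. These counts do not separate PCR copies from molecules, and the intervals given for a library on its own therefore reflect counting error alone.

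The miRNAs that mark neural tissue were present in every library. miR-9-5p, the leading miRNA of neural progenitors, and miR-124-5p, the passenger strand of a neuronal miRNA, summed to 241157 and 259359 scaled CPM in Rx-Dicer libraries 1 and 2 and to 340212 and 524353 in control libraries 1 and 2. Of the markers chosen for neural tissue, miR-9-5p gave nearly all of this sum, and miR-124-3p was not analysed here. Both markers measured were lower in every Rx-Dicer library than in every control library, with a median log2 fold change of -0.75, and neither passed the edgeR test. As miRNAs, both depend on Dicer themselves, and the paper read reduced miR-9 as loss of functional Dicer. Less neural tissue and less Dicer cannot be told apart by these markers.

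miR-26a-5p was among the most abundant of the miRNAs counted in this tissue. Its counts were 22381 and 16154 in Rx-Dicer libraries 1 and 2 and 52521 and 34247 in control libraries 1 and 2, or 29419 and 27545 scaled CPM against 43648 and 37130. Every Rx-Dicer library was below every control library, and the gap between the groups was wider than the spread within either. Group means were 28482 ± 1325 scaled CPM for Rx-Dicer and 40389 ± 4609 for control libraries (SD, n = 2 per genotype). The log2 fold change was -0.50 (SE 0.24, 95% interval -1.06 to 0.05), or 1.42-fold lower, with an adjusted p of 0.508 in edgeR's quasi-likelihood test. The interval included 0 near its upper end, and the test made no call. The unadjusted interval lay below 0 in 4 alternatives, with the red-cell scaling described below (-1.55 to -0.29), with no count minimum (-1.22 to -0.11), with a minimum of 100 counts (-1.02 to -0.01) and without control library 2 (-1.16 to -0.15), and the adjusted p passed the threshold in none of them. In all other alternatives the interval included 0. With total counts only the log2 fold change was -0.11 (95% interval -0.72 to 0.51), and the groups overlapped. In bulk tissue such as this, fewer cells that express a miRNA and less of it in each cell cannot be told apart.

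miR-26b-5p was far less abundant than miR-26a-5p. Its counts were 1576 and 1056 in Rx-Dicer libraries 1 and 2 and 2890 and 2024 in control libraries 1 and 2, or 2072 and 1801 scaled CPM against 2402 and 2194. Again both Rx-Dicer libraries were below both controls, but Rx-Dicer library 1 came close to control library 2. Group means were 1936 ± 192 scaled CPM for Rx-Dicer and 2298 ± 147 for control libraries (SD, n = 2 per genotype). The log2 fold change was -0.25 (SE 0.25, 95% interval -0.84 to 0.34), or 1.19-fold lower, with an adjusted p of 0.781 in the same edgeR test. The estimate was no larger than its standard error. With total counts only the log2 fold change was 0.16, in the opposite direction. Without control library 1, or without Rx-Dicer library 2, it was -0.14.

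**Figure D2:**
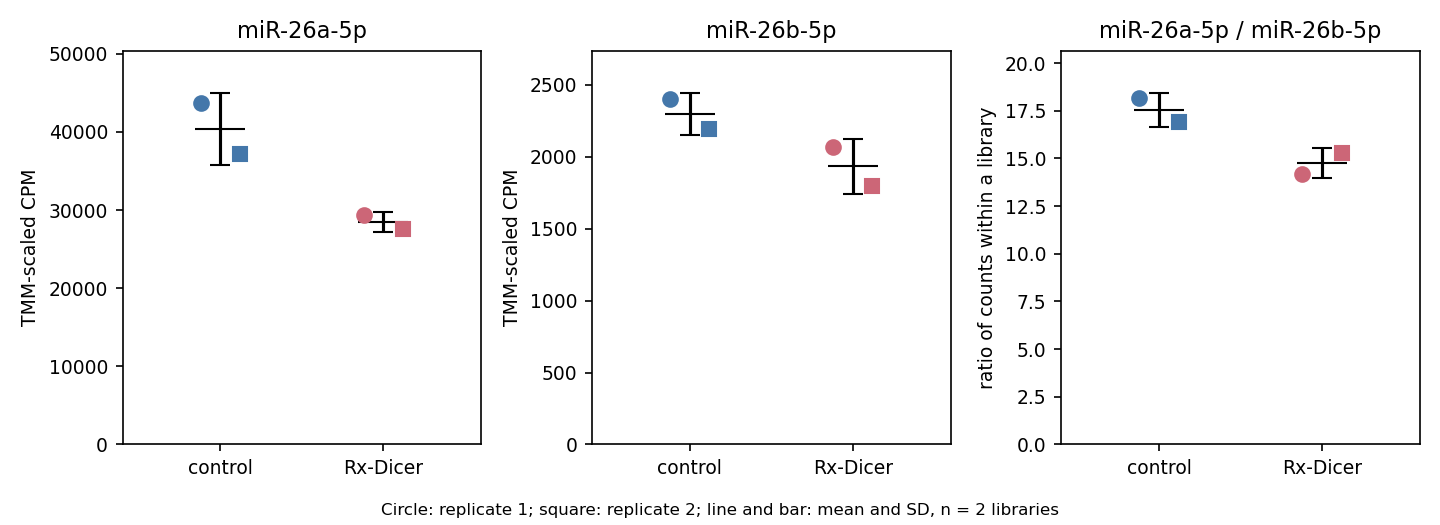
Scaled CPM of miR-26a-5p (left) and miR-26b-5p (middle) and the ratio of their counts within a library (right), for 2 control and 2 Rx-Dicer libraries, with points for libraries and lines and bars for mean and SD. In each panel both Rx-Dicer libraries sit below both controls, at 14.2 and 15.3 against 18.2 and 16.9 for the ratio. The order of the libraries in the first and second panels holds for TMM-scaled values and gives way to overlap when library totals alone are used.

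Neither member passed the adjusted threshold of 0.05 in either direction. Across all 274 miRNAs tested, edgeR called 7 lower in Rx-Dicer mutants (2.55%) and 0 higher (0%), and at an unadjusted p under 0.05 the counts were 23 lower (8.39%) and 3 higher. That balance rested on the scaling, with 10 lower and 51 higher at the same unadjusted threshold with total counts only, and 61 lower and 0 higher with equal red-cell miRNAs. Both members were lower in every Rx-Dicer library than in every control library on scaled CPM, a pattern that 67 of 274 miRNAs showed (24.5%). That order is therefore frequent in these data and does not set the members apart. When library totals alone were used, the order was found in 23 of 274 miRNAs (8.39%) and in neither member. On that scale miR-26a-5p stood at 34378 and 31275 CPM in Rx-Dicer libraries 1 and 2 and at 40430 and 30212 in control libraries 1 and 2, so that control library 2 was the lowest of all.

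Among the fold changes of all tested miRNAs the members lay toward the low end without being extreme. The median log2 fold change over the 274 miRNAs was 0.04, with an interquartile range of -0.33 to 0.33, and 125 of the values were negative. miR-26a-5p lay below this range, at rank 45 from the lowest value, with 16.1% of tested miRNAs lower. miR-26b-5p lay within it, at rank 82, with 29.6% lower.

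Because it is not known whether reads were shared between the members, their counts were also summed and fitted in place of the separate rows. The sum stood at 31490 and 29346 scaled CPM in Rx-Dicer libraries 1 and 2 and at 46050 and 39324 in control libraries 1 and 2. It followed miR-26a-5p closely, since miR-26b-5p gave only 6.58%, 6.14%, 5.22% and 5.58% of it in the same order. The means were 30418 ± 1517 and 42687 ± 4756 (SD, n = 2 per genotype), with a log2 fold change of -0.48 (SE 0.24, 95% interval -1.04 to 0.09) and an edgeR adjusted p of 0.537.

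As a share of all miRNA counts, miR-26 took a few percent of every library. miR-26a-5p took 3.44% of Rx-Dicer library 1 (95% Wilson interval 3.39 to 3.48) and 3.13% of Rx-Dicer library 2 (3.08 to 3.18), and 4.04% (4.01 to 4.08) and 3.02% (2.99 to 3.05) in control libraries 1 and 2. The control libraries thus held the highest and the lowest share, with a difference between them many times the counting error. miR-26b-5p took 0.242% (0.230 to 0.254) and 0.204% (0.192 to 0.217) in the Rx-Dicer libraries and 0.222% (0.215 to 0.231) and 0.179% (0.171 to 0.186) in the controls. Here too the groups overlapped, and the lowest share was again in control library 2.

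The summed share was 3.68%, 3.33%, 4.27% and 3.20% in Rx-Dicer libraries 1 and 2 and control libraries 1 and 2. Its mean was 3.51 ± 0.246% for Rx-Dicer and 3.73 ± 0.754% for control libraries (SD, n = 2 per genotype), a difference of -0.227 percentage points with p = 1 in an exact two-sided permutation test, which with 2 libraries against 2 cannot give a p under 0.333. The difference was smaller than the spread between the controls and changed sign without control library 1, to 0.306. The counts of miR-9-5p alone were 183318 and 151984 in Rx-Dicer libraries 1 and 2 and 408938 and 483367 in the controls. With miR-9-5p left out of the total, the summed share was 5.12% and 4.72% in the Rx-Dicer libraries and 6.23% and 5.58% in the controls. The groups then no longer overlapped (exact permutation p = 0.333, the smallest possible here). Because miR-9-5p took a larger part of both control totals, leaving it out raises the control shares more by construction. The direction of this move therefore says nothing more about miR-26.

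The ratio of the members within a library needs no scaling between libraries. There were 14.2 and 15.3 counts of miR-26a-5p for each count of miR-26b-5p in Rx-Dicer libraries 1 and 2, and 18.2 and 16.9 in control libraries 1 and 2. Both Rx-Dicer libraries were below both controls, so miR-26a-5p made up less of the pair in Rx-Dicer libraries. On the log2 scale the ratios were 3.83, 3.94, 4.18 and 4.08, with counting standard errors of 0.04, 0.05, 0.03 and 0.03. Libraries of the same genotype also differed by more than this counting error, which therefore says nothing about genotype. The mean ratio was 14.7 ± 0.775 for Rx-Dicer and 17.5 ± 0.886 for control libraries (SD, n = 2 per genotype). The difference in log2 ratio was -0.25, or 1.19-fold, with p = 0.333 in an exact two-sided permutation test, the smallest this design can give. With any library left out it lay between -0.30 and -0.20.

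The scaling of the libraries decided how large the members' fold changes were. With total counts only, the log2 fold change was -0.11 for miR-26a-5p and 0.16 for miR-26b-5p, so the latter turned positive, and the median of all 274 miRNAs was 0.44. With libraries scaled so that miR-144-5p, miR-451a and miR-486a-5p, which are abundant in red cells, had equal summed counts, the values were -0.92 and -0.66 and the median was -0.37. A change of scaling shifts all miRNAs nearly alike, so the members' distance to the median is almost fixed by construction and is no sign of stability. In the TMM fit that distance was -0.54 for miR-26a-5p and -0.28 for miR-26b-5p. Leaving out a library did move it, to between -0.71 and -0.39 for miR-26a-5p and between -0.40 and -0.18 for miR-26b-5p. Under no scaling did either member pass the adjusted threshold, and the lowest adjusted p was 0.118 for miR-26a-5p and 0.233 for miR-26b-5p, both with the red-cell scaling. Over all 10 alternatives with the 4 libraries, the adjusted p ran from 0.118 to 0.815 for miR-26a-5p and from 0.233 to 0.905 for miR-26b-5p.

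**Figure D3:**
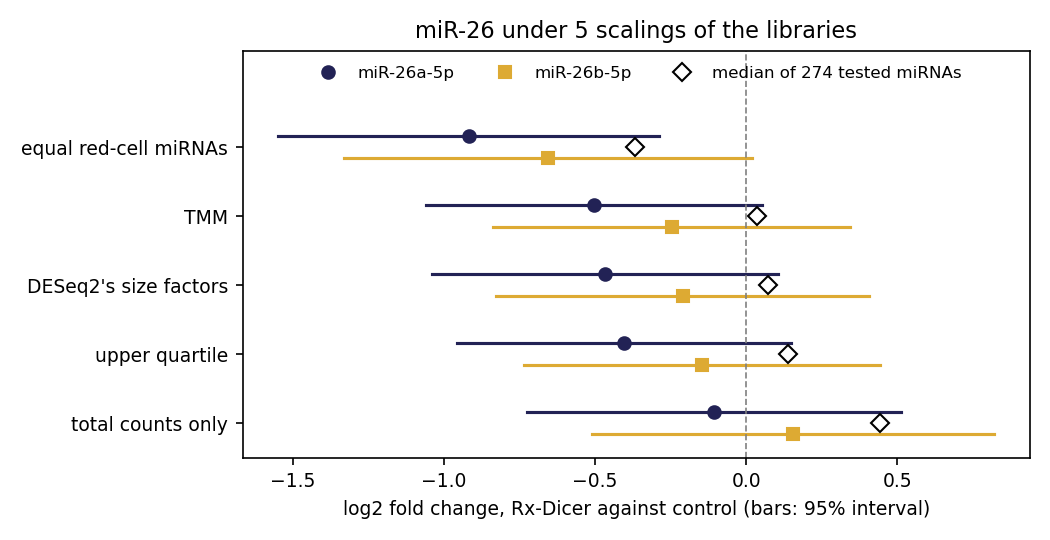
Log2 fold change (Rx-Dicer against control) of miR-26a-5p and miR-26b-5p with 95% intervals from edgeR under 5 scalings of the 4 libraries, with the median of the tested miRNAs as open diamonds. Both members move along with the median, as a change of scaling brings about by construction, while it goes from -0.37 with the red-cell scaling to 0.44 with total counts only, where miR-26b-5p reaches 0.16.

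Which hairpin the miR-26a-5p reads came from could not be resolved. The data give miR-26a-5p a row for each of its 2 precursors, and the counts of the second row were 22375 and 16151 in Rx-Dicer libraries 1 and 2 and 52518 and 34242 in control libraries 1 and 2. These were 6, 3, 3 and 5 counts fewer than in the row used, between 0.00571% and 0.0268% of it. Nearly every read was thus counted on both precursors, and the contributions of the Ctdspl and Ctdsp2 introns cannot be told apart. miR-26b-5p has a single row, and its counts can be assigned to the Ctdsp1 intron as far as its reads were told from those of miR-26a-5p.

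In the order of levels, miR-26a-5p was at rank 3 of 1059 by mean control level and at rank 5 in Rx-Dicer mutants. Directly above it in controls were miR-9-5p and miR-99b-5p, the latter at 54641 ± 2360 scaled CPM, and directly below were miR-541-5p at 39128 ± 6943 and miR-30d-5p at 36110 ± 10145 (SD, n = 2 per genotype). The step to miR-99b-5p was larger than the spread of either, while miR-26a-5p, miR-541-5p and miR-30d-5p did not differ beyond theirs. In Rx-Dicer mutants miR-541-5p stood at 40010 ± 3256 and miR-30d-5p at 29571 ± 3500, so that miR-541-5p, with a log2 fold change of 0.03, and miR-30d-5p, with -0.29, both had means above that of miR-26a-5p.

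miR-26b-5p was at rank 54 in controls and at rank 55 in Rx-Dicer mutants. Its neighbours in controls were miR-183-5p (2529 ± 1048 scaled CPM) and miR-872-5p (2499 ± 799) above, and let-7d-5p (2206 ± 734) and miR-708-5p (2050 ± 525) below, all within their spread of it (SD, n = 2 per genotype). Of these 4 neighbours, let-7d-5p was the 1 called lower, with a log2 fold change of -1.64 and an edgeR adjusted p of 0.0472. No miRNA at all was called with total counts only, with the replicate number as a block or with 1 control library left out, so this call was lost there.

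The miRNAs whose levels across the 4 libraries were most like those of miR-26a-5p were found among 156 tested miRNAs with a mean of at least 100 scaled CPM. Likeness was the root-mean-square difference of log2 scaled CPM after each miRNA was centred on its own mean. The nearest was miR-384-5p (0.019), followed by miR-125a-5p (0.040), miR-672-5p (0.043), miR-129-5p (0.058) and miR-30c-5p (0.066). miR-384-5p was much rarer than miR-26a-5p, with 122 and 116 scaled CPM in Rx-Dicer libraries 1 and 2 and 178 and 154 in control libraries 1 and 2, and kept almost the same proportions between libraries. The log2 fold changes of the 5, from -0.54 for miR-672-5p to -0.43 for miR-125a-5p, had to be near that of miR-26a-5p because likeness was taken over the same libraries, and none was called.

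For miR-26b-5p the nearest was miR-224-5p (0.040), followed by miR-3074-5p (0.071), miR-30b-5p (0.089), miR-125a-5p (0.098) and miR-30e-5p (0.100). miR-125a-5p was the 1 miRNA on both lists. The members were not each other's nearest: miR-26b-5p was at place 18 for miR-26a-5p and miR-26a-5p at place 13 for miR-26b-5p, at a difference of 0.136. Both lists describe these 4 libraries and were not tested. The counting error of log2 counts reached 0.17 for miR-384-5p and 0.06 for miR-224-5p, above their differences of 0.019 and 0.040. It was also above the difference for miR-672-5p, miR-129-5p, miR-3074-5p and miR-30b-5p, so the order within either list is not resolved.

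A list of 18 miRNAs known from neural tissue had 11 with a row and 8 tested. None of the 3p arms on the list had a row, so the values below describe its 5p arms alone. None of the 8 was called by edgeR, beside 2.55% of all 274 called lower, so a count of 0 sets this short list apart in no way. A negative log2 fold change was found for 5 of the 8 (62.5%, beside 45.6% of all 274), and the median was -0.26, beside 0.04. The values ran from -0.79 for miR-9-5p (adjusted p = 0.344 in edgeR), -0.72 for miR-124-5p and -0.46 for miR-7a-5p to 0.23 for miR-135a-5p. miR-26a-5p, at -0.50, and miR-26b-5p, at -0.25, both lay inside this range, the latter near the median of the list.

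Intronic or otherwise intragenic origin is common among the miRNAs tested. For 88 of the 274, all RefSeq hairpins lie on the sense strand inside a protein-coding gene, as for both miR-26 members, and among these miR-26a-5p was the most abundant. Of the 88, edgeR called 2 lower (2.27%, beside 2.55% of all 274) and 0 higher. A negative log2 fold change was found for 51 (58.0%, beside 45.6%), and 29 were lower in every Rx-Dicer library on scaled CPM (33.0%, beside 24.5%). The median log2 fold change was -0.06, beside 0.04 for all 274, so that miR-26a-5p and miR-26b-5p both lay below the middle of the intragenic miRNAs. The lowest values were those of miR-98-5p in Huwe1 (-1.79) and miR-188-5p in Clcn5 (-1.52), and the highest those of miR-2137 in Zfp185 (1.03) and miR-7033-5p in Pom121 (1.05).

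Markers of other tissues varied between libraries and are given because the dissected pieces could hold them. Red-cell miRNAs (3 of 3 tested, led by miR-486a-5p) summed to 7595 and 8504 scaled CPM in Rx-Dicer libraries 1 and 2 and to 5737 and 6362 in control libraries 1 and 2, with a median log2 fold change of 0.39. Their sum was higher in both Rx-Dicer libraries, opposite to miR-26, while miR-144-5p within it had a log2 fold change of -0.16 with overlapping groups. Mesenchymal miRNAs (5 of 5 tested, led by miR-199a-5p) summed to 11917 and 11348 against 4443 and 11072, with a median log2 fold change of 0.58, and were low in control library 1 alone. Eye and epithelial miRNAs (7 of 8 tested, led by miR-182-5p) summed to 1659 and 14964 against 3656 and 7482, with a median of 0.41, the highest sum in Rx-Dicer library 2 and the lowest in Rx-Dicer library 1. Within that list miR-204-5p (-0.77) and miR-96-5p (-0.13) had negative log2 fold changes, and miR-204-5p was lower in every Rx-Dicer library, as the members were on scaled CPM. The endothelial miRNA miR-126a-5p stood at 431 and 244 against 253 and 403, with overlap. No marker measured was at a total of 0, and edgeR called none of them.

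The members' fold changes were also computed without each library in turn, since every library had the highest or lowest sum of some list. Without control library 1 the log2 fold change was -0.35 for miR-26a-5p and -0.14 for miR-26b-5p. Without Rx-Dicer library 2 it was -0.45 and -0.14, and without Rx-Dicer library 1 it was -0.55 and -0.35. Without control library 2, in which miR-9-5p but not miR-124-5p was highest, it was -0.66 and -0.35. Both members stayed negative in these 4 fits, and the part of other tissues in these values was not tested further.

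The 3′ UTRs of the host genes were searched for the letters that pair with the miR-26 seed. The motifs were TACTTGA (the reverse complement of bases 2 to 8) and ACTTGAA (that of bases 2 to 7 followed by A), which overlap in ACTTGA, on the sense strand of the longest annotated 3′ UTR of each gene. Among 21004 genes, 9.67% held the first, 14.1% the second and 18.3% either. The 3′ UTR of Ctdsp2 (3489 bases) held 1 match of each, while those of Ctdspl (3349 bases) and Ctdsp1 (1701 bases) held 0 of either. In genes with 3′ UTRs of similar length to that of Ctdsp2, 23.1% held the first motif and 32.2% the second, so a match in a 3′ UTR of this length is not unusual. The Ctdsp2 matches lie on the plus strand of chromosome 10, at chr10:126997566-126997572 and chr10:126999881-126999887 of GRCm38, in the last exon downstream of Mir26a-2, and are shown with the motif in capitals and the bases on either side.
Ctdsp2 first match: gtgttgctctTACTTGAtttgccaaat
Ctdsp2 second match: gtattcaaaaACTTGAActgtaggatg
A match of letters is a description, and whether these positions are bound by miR-26, or whether the host transcripts differed between the genotypes, was not analysed here.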

How the data were processed

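The authors counted 75-base single-end small RNA reads on pairs of mature miRNA and precursor with miRDeep2, against mm10 and miRBase, and deposited whole-number counts without normalization. The version of miRDeep2 and the mismatches it allowed are not given in the sources used here. For each mature name the precursor row with the highest total was kept, which avoids counting a read on each precursor, and totals then ran from 516517 to 1299067 counts. A miRNA was tested if 2 or more libraries had at least 10 counts of it, which left 274. The fit had genotype as its single factor and TMM scaling and used the quasi-likelihood test of edgeR 4.0.16 (in R 4.3.3, with limma 3.58.1). Benjamini-Hochberg adjustment ran over all miRNAs tested. DESeq2 1.42.0 gave the Wald test and size factors used as alternatives, and the other alternatives were library scaling, count minimum, precursor rows, the replicate number as a block and each library left out. Logarithms of CPM for likeness used a prior count of 0.5. Scripts were tested on simulated data. Exact permutation tests and Wilson intervals used Python 3.11.15 with scipy 1.17.1. Hairpins and mature sequences came from RefSeq (GRCm38.p6), and genes and 3′ UTRs from GENCODE M21. A miRNA counted as intragenic when every RefSeq hairpin of its name did, since precursor rows could not be matched to hairpins, and of the 274, 6 had hairpins of both kinds, 136 none inside such a gene and 44 no RefSeq entry. The named miRNAs include the members, their neighbours in level (2 above, 2 below) and the 5 most like each. They also include up to 4 neural miRNAs and the 2 lowest and 2 highest of the intragenic list. Markers of tissues, the miRNAs of the red-cell scaling and miR-6371 are named in addition, where they are described. The members and lists were chosen with earlier results of these data known.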

Additional observations from a re-analysis of the deposited data

How the results depend on the processing

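With other scalings, tests, count minimums and rows, the log2 fold changes of miR-26a-5p and of the miR-26 sum stayed negative and uncalled under all 14 alternatives. miR-26b-5p stayed negative in 13 and was 0.16 with total counts only. Without 1 library, a fit that assumes the lone library to vary like the other group gave -0.66 to -0.35 for miR-26a-5p, -0.35 to -0.14 for miR-26b-5p and -0.65 to -0.33 for the sum. The difference in the miR-26 share became 0.0731 percentage points with the sum over precursor rows and ran from -0.760 to 0.306 without 1 library, and the cause was not tested. The number of miRNAs called lower was 7 and became 4 with DESeq2's size factors in edgeR and 3 with upper-quartile scaling. It was 0 with total counts only (unadjusted edgeR p under 0.05 for 10 lower, 51 higher) and 11 with the red-cell scaling. DESeq2's Wald test, which changed the test and the size factors together, gave 11. With no count minimum the number was 14, and with all precursor rows it was 11. It ran from 0 to 5 without 1 library, with 0 without control library 1 (18 unadjusted) or control library 2 (34 unadjusted) and 1 without Rx-Dicer library 1. None was called higher in any setting, by edgeR or DESeq2 (unadjusted, 3 with TMM and 5 in DESeq2).

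With the replicate block, the log2 fold change was -0.50 for miR-26a-5p (edgeR adjusted p = 0.501), -0.25 for miR-26b-5p and -0.47 for the sum, and 0 miRNAs were called lower (20 unadjusted). Deviations from the group mean had a correlation of 0.08 over 274 miRNAs between libraries with the same number. With 2 libraries in each group, the deviations of a group mirror each other, so this value cannot decide whether the libraries were paired. Whether libraries with the same number shared a litter or a batch is not given in the labels.

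With 2 libraries in each group, 95% intervals of the members' log2 fold changes span more than a unit. The effect of more depth on them was not tested.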
